A study of Mus musculus with 6 samples.

Results

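Genes that mark T cells and intraepithelial lymphocytes were followed in RNA of small intestinal crypts from mice named as lacking CSN8 in the epithelium. The group consists of 10 genes chosen by name: Ptprc, Cd3e, Cd3g, Cd8a, Gzma, Gzmb, Itgae, Cd7, Klrd1 and Xcl1. All 10 were measured, each by 1 probe set, among 19505 genes in all. CSN8ΔIEC mice were compared with CSN8fl/fl mice, which carry a loxP-flanked Cops8 gene (the CSN8 subunit of the COP9 signalosome), both on a C57BL/6 background, with 3 crypt samples per genotype. The name of the first genotype says that the gene was deleted in intestinal epithelial cells; no source used here gives the Cre driver. In both genotypes replicates 1 and 2 were labelled female at 16 weeks of age and replicate 3 male at 10 weeks. Lymphocytes were thus not the cells named as lacking the gene, and they reached the arrays only as far as they stayed in the crypt preparation, from which the labels say the villi had been scraped off.

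Intraepithelial lymphocytes are T cells, mostly of the CD8 kind, that lie between the epithelial cells of the gut and are most frequent in the villi. They read antigen or stress ligands through the T cell receptor, whose signal runs through the CD3 chains, and many carry cytotoxic granules with granzymes. The integrin CD103, whose alpha chain is Itgae, holds them to E-cadherin on epithelial cells. In RNA of a mixed tissue, fewer cells of a type and less RNA per cell cannot be told apart.

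Each sample had its own array, and the values are log2 signals after RMA, a background correction, normalisation and summary of the probes. The labels call the samples biological replicates without saying that each came from a separate mouse, so that part of the spread behind the p-values may be technical. The array of CSN8fl/fl replicate 3 stood apart from the rest, with correlations of 0.976 to 0.986 with the other arrays, against a highest correlation of 0.992 or 0.993 for each of the others. Values without it stand beside those of the 10 genes and of the lists. A filter on dim probe sets, at the median of all of them, kept 8 of the 10 lymphocyte genes and left out Klrd1 and Xcl1. The Cops8 signal averaged 7.69 ± 0.078 in CSN8ΔIEC crypts and 8.19 ± 0.081 in CSN8fl/fl crypts (SD, n = 3 each), a log2 difference of −0.50 with an adjusted p of 0.0865. A Cops8 signal thus remained in CSN8ΔIEC crypts, and the arrays do not show absence of the transcript. Epithelial tissue showed in markers such as Cdh1, which encodes E-cadherin, on a scale that ended at 14.1. Cdh1 averaged 13.28 in CSN8ΔIEC and 13.13 in CSN8fl/fl crypts. As a pan-epithelial marker it does not tell crypt from villus. Markers of villus enterocytes gave signal too, with means over all arrays from 8.42 for Nt5e to 13.75 for Anpep. By these means Nt5e and Anpep stood at percentiles 70.6 and 99.99 of all genes. How much villus tissue the preparations held was not tested.

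The comparison of the genotypes, array by array, asks whether the lymphocyte share of the crypt preparations differed. Most lymphocyte genes had somewhat lower mean signals in CSN8ΔIEC crypts, with differences from −1.05 for Ptprc to 0.30 for Xcl1, but none passed the threshold. Differences are CSN8ΔIEC minus CSN8fl/fl on the log2 scale with their SE, tested with limma's moderated linear model, with Benjamini-Hochberg adjusted p-values over the whole table and a threshold of 0.05. Of the 10 genes 0 passed, where 1.08% of all genes did. At an unadjusted p under 0.05 there were 3 of the 10 (Ptprc, Cd7 and Klrd1), beside 15% of all genes. For 4 genes (those 3 and Cd3e) every CSN8ΔIEC array lay below every CSN8fl/fl array, as in 11.7% of all genes, and for 0 genes every CSN8ΔIEC array lay above, as in 10.7%. The mean was lower in CSN8ΔIEC crypts for 8 of the 10, where 51.8% of all genes had a difference below 0, and the median difference was −0.33 against −0.011 over all genes. With CSN8fl/fl replicate 3 left out, 6 of the 10 differences were below 0 and their median was −0.071.

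**Figure D1:**
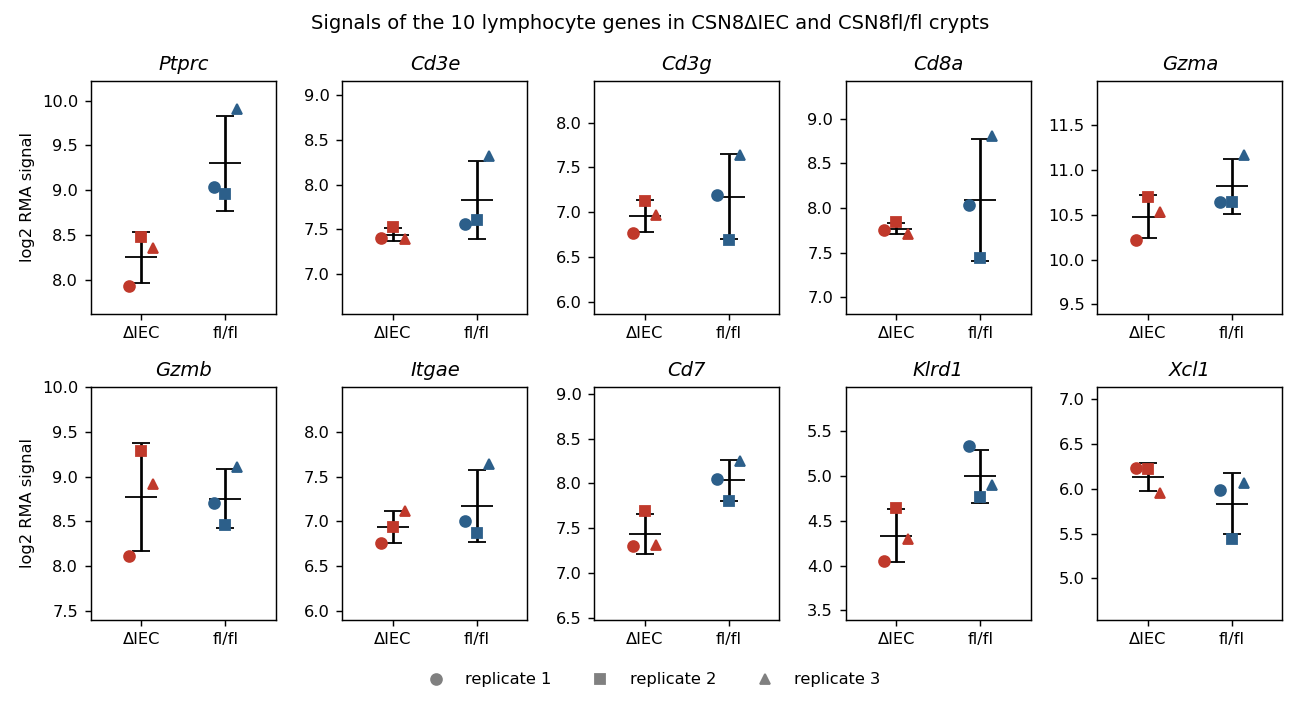
Log2 RMA signal of each of the 10 lymphocyte genes in the 3 CSN8ΔIEC arrays (red, left) and the 3 CSN8fl/fl arrays (blue, right), with bars for the mean ± SD and symbols for the replicate number. The groups do not overlap for Ptprc, Cd3e, Cd7 and Klrd1, and the CSN8fl/fl array of replicate 3 is the highest of the 6 for 7 genes.

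Ptprc encodes CD45, the tyrosine phosphatase on the surface of all nucleated blood cells, which sets the threshold of T cell receptor signalling by acting on Src family kinases. Its signal was 7.93, 8.47 and 8.35 in CSN8ΔIEC replicates 1 to 3, against 9.04, 8.95 and 9.91 in CSN8fl/fl replicates 1 to 3. All CSN8ΔIEC arrays were below all CSN8fl/fl arrays, and CSN8fl/fl replicate 3 was the highest by a wide margin. The difference of −1.05 ± 0.26, a 2.07-fold lower signal with a 95% interval from −1.63 to −0.47, did not pass over all genes (adjusted p = 0.106), and 0.866% of all genes had a lower difference. It was −0.74 without CSN8fl/fl replicate 3. An exact permutation test over the 6 arrays gave p = 0.1, the smallest that 3 arrays against 3 allow.

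Ptprc is not particular to lymphocytes: in the mouse gut, tuft cells, the chemosensory cells of the epithelium, are known to express it too. Markers of tuft cells were lower as well. All 14 measured of 16 listed had lower means in CSN8ΔIEC crypts with a median difference of −1.60. Dclk1, Pou2f3, Rgs13 and Siglecf fell, with differences of −2.72, −1.69, −3.18 and −3.12, and the other 10 did not pass. Without CSN8fl/fl replicate 3 the median was −1.02, and 8 of the 14 fell, those 4 among them. Their summed linear signals were 1103 to 1249 in CSN8ΔIEC arrays and 2441 to 7543 in CSN8fl/fl arrays, and CSN8fl/fl replicate 3 was the highest array for 14 of the 14. This marker list was drawn up after the Ptprc values had been seen, and its part in the Ptprc result was not tested.

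The promoters of 7 of the 10 genes are in the RefSeq table for GRCm38.p6, as 250 bases before and 50 after the transcription start. Those of Ptprc and Cd3e are shown as the gene with the lowest difference and a T cell receptor gene, and those of Gzma and Gzmb as the pair of granule proteases. For Ptprc, which has several starts in the table, the one farthest upstream is given. Capitals mark TGTGGT, a core of RUNX sites, AGGAAG, a core of ETS sites, and TATAAA, a form of the TATA box, each on either strand. Other forms of these sites are not marked.
Ptprc: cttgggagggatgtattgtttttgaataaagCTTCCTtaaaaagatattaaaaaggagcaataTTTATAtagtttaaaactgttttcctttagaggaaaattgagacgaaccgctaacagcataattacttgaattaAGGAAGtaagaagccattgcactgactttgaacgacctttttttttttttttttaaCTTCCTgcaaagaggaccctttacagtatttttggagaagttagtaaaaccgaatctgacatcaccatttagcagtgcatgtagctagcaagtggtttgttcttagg
Cd3e: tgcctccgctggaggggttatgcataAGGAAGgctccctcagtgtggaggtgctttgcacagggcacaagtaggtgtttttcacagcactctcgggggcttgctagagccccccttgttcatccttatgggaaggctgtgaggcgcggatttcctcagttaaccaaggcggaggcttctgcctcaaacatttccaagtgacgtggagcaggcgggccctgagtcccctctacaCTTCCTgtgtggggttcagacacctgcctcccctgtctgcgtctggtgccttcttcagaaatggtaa
Gzma: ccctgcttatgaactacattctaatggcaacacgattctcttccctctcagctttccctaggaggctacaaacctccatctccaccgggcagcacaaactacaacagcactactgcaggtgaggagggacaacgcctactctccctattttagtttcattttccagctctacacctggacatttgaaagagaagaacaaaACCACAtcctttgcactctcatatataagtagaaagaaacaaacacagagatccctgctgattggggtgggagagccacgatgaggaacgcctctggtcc
Gzmb: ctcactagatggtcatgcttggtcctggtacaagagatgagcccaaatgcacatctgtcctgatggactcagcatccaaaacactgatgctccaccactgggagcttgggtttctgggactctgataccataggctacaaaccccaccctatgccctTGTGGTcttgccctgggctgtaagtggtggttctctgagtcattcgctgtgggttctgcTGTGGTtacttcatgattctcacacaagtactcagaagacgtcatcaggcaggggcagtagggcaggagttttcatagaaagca
They lie at chr1:138175256-138175555, chr9:45009562-45009861, chr13:113100932-113101231 and chr14:56262285-56262584, all on the minus strand. The Ptprc window holds 3 AGGAAG and 1 TATAAA, the TATAAA at position −187 from the transcription start, and that of Cd3e 2 AGGAAG. The Gzma window holds 1 TGTGGT and that of Gzmb 2, and neither has AGGAAG. The windows of Cd3g and Cd8a hold none of these letters, and that of Xcl1 holds 1 TGTGGT and 1 AGGAAG. Among the 32851 promoters of the table, 16.8% hold TGTGGT, 35.4% AGGAAG and 13.6% TATAAA. The matches describe the sequences alone.

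Cd3e and Cd3g encode the epsilon and gamma chains of CD3, which carry the signal of the T cell receptor into the cell. Cd3e was at 7.40, 7.52 and 7.39 in CSN8ΔIEC replicates 1 to 3, against 7.55, 7.60 and 8.32 in CSN8fl/fl replicates 1 to 3. The CSN8ΔIEC arrays lay below the CSN8fl/fl arrays, but 5 arrays were close together and CSN8fl/fl replicate 3 alone was high. The difference was −0.39 ± 0.20 (95% interval −0.84 to 0.064, adjusted p = 0.407), and −0.14 without that array. Cd3g was at 6.77, 7.13 and 6.97 in CSN8ΔIEC crypts, against 7.19, 6.69 and 7.64 in CSN8fl/fl crypts. The groups overlapped, since CSN8fl/fl replicate 2 was the lowest of all arrays and replicate 3 the highest. The Cd3g difference of −0.22 ± 0.22 (95% interval −0.72 to 0.29, adjusted p = 0.689) became 0.017 without CSN8fl/fl replicate 3.

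Cd8a encodes the alpha chain of CD8, the coreceptor for MHC class I, which intraepithelial lymphocytes of the natural kind carry as an alpha-alpha pair. Its signals were 7.76, 7.84 and 7.71 in CSN8ΔIEC replicates 1 to 3, against 8.04, 7.44 and 8.80 in CSN8fl/fl replicates 1 to 3. The CSN8ΔIEC arrays agreed closely (SD 0.065) and lay inside the wide span of the CSN8fl/fl arrays (SD 0.68). The difference was −0.32 ± 0.29 (95% interval −0.97 to 0.33, adjusted p = 0.637) with all arrays and 0.033 without CSN8fl/fl replicate 3. The beta chain gene Cd8b1 differed by 0.017 (adjusted p = 0.981).

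Neither granule protease passed. Gzma encodes granzyme A, a tryptase-like protease. It was at 10.22, 10.70 and 10.53 in CSN8ΔIEC replicates 1 to 3, against 10.65, 10.64 and 11.17 in CSN8fl/fl replicates 1 to 3. The groups overlapped through CSN8ΔIEC replicate 2, and the difference was −0.34 ± 0.18 (95% interval −0.75 to 0.080, adjusted p = 0.432), and −0.16 without CSN8fl/fl replicate 3. Gzmb encodes granzyme B, which cleaves after aspartate and sets off apoptosis in target cells. It was at 8.12, 9.29 and 8.92 in CSN8ΔIEC crypts, against 8.70, 8.46 and 9.11 in CSN8fl/fl crypts. Both the lowest and the highest array belonged to CSN8ΔIEC, replicates 1 and 2, and the difference was 0.018 ± 0.29 (95% interval −0.63 to 0.67, adjusted p = 0.982), and 0.19 without CSN8fl/fl replicate 3.

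Itgae, the alpha chain of the integrin that binds E-cadherin, was at 6.76, 6.93 and 7.12 in CSN8ΔIEC replicates 1 to 3, against 7.01, 6.87 and 7.63 in CSN8fl/fl replicates 1 to 3. Only CSN8fl/fl replicate 3 lay outside the span of the others by more than 0.5. The difference of −0.23 ± 0.20 (95% interval −0.69 to 0.23, adjusted p = 0.627) was −0.00071 without that array.

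The groups of the surface receptors Cd7 and Klrd1 were apart, as those of Ptprc were. Cd7 encodes an immunoglobulin superfamily receptor of T and natural killer cells. Its signals were 7.30, 7.70 and 7.31 in CSN8ΔIEC replicates 1 to 3, against 8.05, 7.80 and 8.25 in CSN8fl/fl replicates 1 to 3. The groups did not overlap, with CSN8ΔIEC replicate 2 and CSN8fl/fl replicate 2 closest to each other. The difference was −0.60 ± 0.16, or 1.51-fold (95% interval −0.97 to −0.23, adjusted p = 0.136), and −0.49 without CSN8fl/fl replicate 3. Klrd1 encodes CD94, the partner of NKG2 receptors that bind the MHC class I-like molecule Qa-1. It was at 4.06, 4.65 and 4.29 in CSN8ΔIEC crypts, against 5.33, 4.76 and 4.90 in CSN8fl/fl crypts. Here CSN8fl/fl replicate 1 was the highest array. The difference was −0.67 ± 0.19, or 1.59-fold (95% interval −1.11 to −0.23, adjusted p = 0.161), and −0.72 without CSN8fl/fl replicate 3. Its probe set did not pass the filter on dim probe sets. Of the NKG2 genes that pair with CD94, Klrc1 averaged 2.88 ± 0.14 in CSN8ΔIEC and 3.09 ± 0.27 in CSN8fl/fl crypts (SD, n = 3 each). Klrc2 averaged 3.28 ± 0.075 in CSN8ΔIEC and 3.38 ± 0.34 in CSN8fl/fl crypts (SD, n = 3 each). By mean signal Klrc1 and Klrc2 stood at percentiles 0.87 and 3.6 of all genes. That is near the floor of the arrays, where neither expression nor a difference can be read.

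Xcl1, the chemokine lymphotactin that activated CD8 T cells and natural killer cells release toward cross-presenting dendritic cells, had the highest difference of the 10. It was at 6.23, 6.22 and 5.96 in CSN8ΔIEC replicates 1 to 3, against 5.99, 5.44 and 6.07 in CSN8fl/fl replicates 1 to 3. CSN8ΔIEC replicate 3 lay below 2 of the 3 CSN8fl/fl arrays, so the groups overlapped. The difference was 0.30 ± 0.18 (95% interval −0.10 to 0.71, adjusted p = 0.470), and 0.42 without CSN8fl/fl replicate 3. Its receptor gene Xcr1 was at 4.22 ± 0.12 in CSN8ΔIEC and 4.46 ± 0.37 in CSN8fl/fl crypts (SD, n = 3 each). That is a dim signal, at percentile 15.7 of all genes by its mean.

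**Figure D2:**
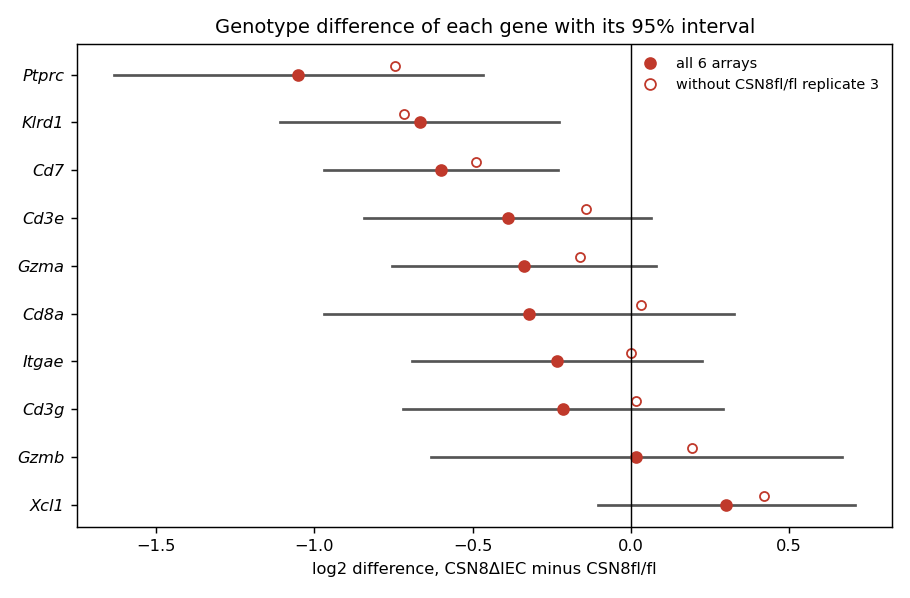
Log2 difference (CSN8ΔIEC minus CSN8fl/fl) of the 10 genes, with filled points and 95% intervals from all 6 arrays and open points for the difference without CSN8fl/fl replicate 3. The intervals of Ptprc, Klrd1 and Cd7 lie below 0 before adjustment over all genes, and the open points of Cd8a and Cd3g lie just above 0.

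Single arrays stood out within each genotype. Relative to each gene's mean over the 6 arrays, their median deviation was −0.36, −0.029 and −0.17 in CSN8ΔIEC replicates 1 to 3, against 0.055, −0.11 and 0.55 in CSN8fl/fl replicates 1 to 3. CSN8fl/fl replicate 2 lay below CSN8ΔIEC replicate 2, so the groups overlapped. CSN8fl/fl replicate 3 was the highest array for 7 of the 10 genes, where it was the highest for 23.8% of all genes, and CSN8ΔIEC replicate 1 the lowest for 6 of the 10, where it was the lowest for 15.6% of all genes. For the receptor and coreceptor genes Cd3e, Cd3g and Cd8a alone, the median deviation was −0.23, −0.090 and −0.22 in CSN8ΔIEC replicates 1 to 3, against 0.11, −0.37 and 0.69 in CSN8fl/fl replicates 1 to 3. By these genes, CSN8fl/fl arrays were both the lowest and the highest of the 6.

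The villus enterocyte markers, absorptive genes of the part of the epithelium where intraepithelial lymphocytes are most frequent, were set beside them. Their median deviation was −0.26, 0.25 and −0.21 in CSN8ΔIEC replicates 1 to 3, against −0.020, −0.073 and 0.42 in CSN8fl/fl replicates 1 to 3. The highest array and the lowest array were the same as for the lymphocyte genes, CSN8fl/fl replicate 3 and CSN8ΔIEC replicate 1. Of 21 markers measured, 15 had lower means in CSN8ΔIEC crypts and 0 passed the threshold, and their summed linear signals were 101185 to 134749 in CSN8ΔIEC arrays and 107029 to 139564 in CSN8fl/fl arrays. Alpi, the intestinal alkaline phosphatase, had the lowest difference, −1.08 ± 0.23 (adjusted p = 0.0681). The mean difference of the list was −0.20, and −0.028 without CSN8fl/fl replicate 3, where 8 of the 21 differences were below 0. Taken relative to the list on the same array, a scaling added after the data had been seen, the median difference of the 10 lymphocyte genes was −0.13, that of Ptprc −0.85, that of Cd7 −0.40 and that of Cd3e −0.19. On that scale the groups did not overlap for Ptprc and Cd7, and they overlapped for the other 8. With CSN8fl/fl replicate 3 also left out, the median of the 10 on that scale was −0.043. The part of villus material in the lymphocyte signals was not tested. The 13 pan-epithelial markers had a median difference of −0.0082, and their median deviations stayed between −0.056 and 0.056 on all arrays.

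**Figure D3:**
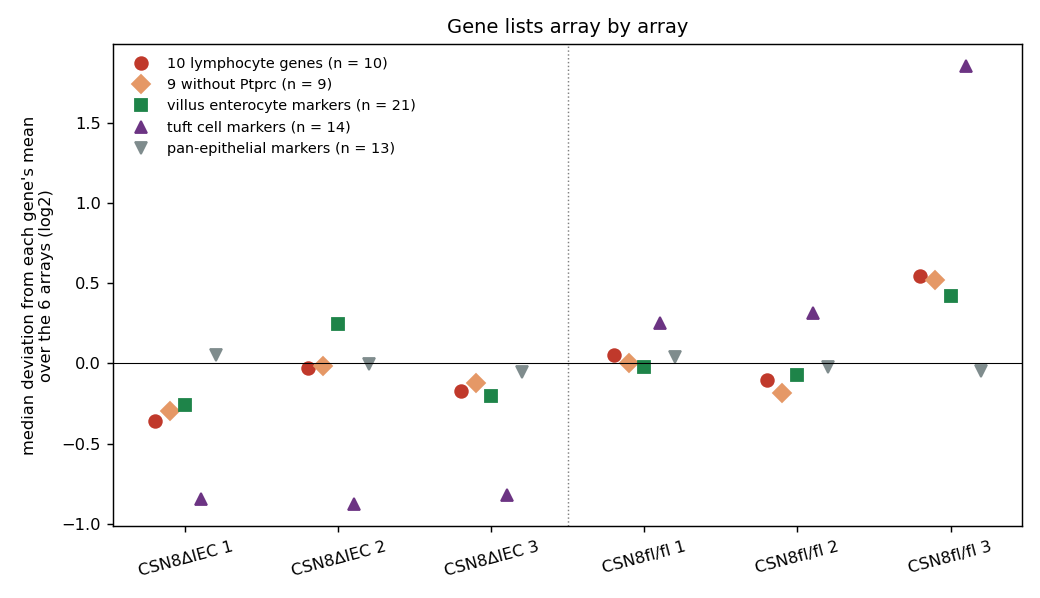
Median deviation of each gene list from the genes' own means over the 6 arrays (log2), for the CSN8ΔIEC arrays (left of the dotted line) and the CSN8fl/fl arrays (right). Lymphocyte genes and villus enterocyte markers are highest on CSN8fl/fl replicate 3 (0.55 and 0.42) and lowest on CSN8ΔIEC replicate 1 (−0.36 and −0.26), while tuft cell markers separate the genotypes.

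Other genes of the T cell receptor and its signalling, from a list that leaves out the 10, were measured beside them. Of 18 measured of 27 listed, 0 passed, 9 had differences below 0 and 9 above, and the median was −0.023, or 0.0092 without CSN8fl/fl replicate 3. Fyb, an adaptor protein of T cells and other blood cells, had the lowest difference. It was at 4.90, 5.62 and 5.69 in CSN8ΔIEC replicates 1 to 3, against 6.59, 6.72 and 8.04 in CSN8fl/fl replicates 1 to 3. Its groups did not overlap, and the difference was −1.72 ± 0.37 (adjusted p = 0.0733). The cell type behind the Fyb signal was not tested. Cd3d, the delta chain of CD3, was at 6.17, 6.43 and 5.96 in CSN8ΔIEC crypts, against 6.74, 6.49 and 6.84 in CSN8fl/fl crypts, a difference of −0.51 ± 0.16 (adjusted p = 0.184). Cd4, the coreceptor of helper T cells, differed by 0.088 (adjusted p = 0.851).

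Of the other cytotoxic and natural killer receptor genes, 27 were measured of 30 listed, 0 passed, 15 differences were below 0 and the median was −0.099, or 0.014 without CSN8fl/fl replicate 3. Fasl, the ligand of the death receptor Fas, had the highest difference, 0.62 ± 0.17 (adjusted p = 0.135). Next by p-value were Cd244a, a receptor of natural killer and cytotoxic T cells, with −0.52 ± 0.17 (adjusted p = 0.205), Il2rb, the receptor chain shared by interleukins 2 and 15, with −0.45 ± 0.16 (adjusted p = 0.230), and Cd160, a receptor frequent on intraepithelial lymphocytes, with −0.45 ± 0.17 (adjusted p = 0.271). Of 16 lymphocyte homing and adhesion genes measured of 20 listed, 0 passed, 13 had differences below 0 and the median was −0.19, or −0.088 without CSN8fl/fl replicate 3. Gpr55, a lipid receptor of intraepithelial lymphocytes, differed by −0.55 ± 0.18 (adjusted p = 0.200) and Ccr9, the gut homing receptor for Ccl25, by −0.47 ± 0.21 (adjusted p = 0.337).

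Epithelial ligands and growth factors of intraepithelial lymphocytes held no gene past the threshold either, with 0 of 22 measured of 27 listed, 13 differences below 0 and a median of −0.16, or −0.042 without CSN8fl/fl replicate 3. Ulbp1, a stress ligand of the activating receptor NKG2D, was at 6.66, 6.31 and 6.94 in CSN8ΔIEC replicates 1 to 3, against 5.61, 6.00 and 5.06 in CSN8fl/fl replicates 1 to 3. Its groups did not overlap, and the difference was 1.08 ± 0.24 (adjusted p = 0.0850). Il7, a growth factor of lymphocytes, differed by 0.52 ± 0.14 (adjusted p = 0.126), and Il15, which keeps intraepithelial lymphocytes alive, by −0.41 ± 0.16 (adjusted p = 0.280). Il18 differed by −0.67 ± 0.21 (adjusted p = 0.188). Btnl1 and Btnl6, butyrophilin-like proteins that shape gamma-delta intraepithelial lymphocytes in mice, differed by −0.31 and −0.24 (adjusted p = 0.400 and 0.484). Ccl25 differed by 0.083 and Cdh1 by 0.14 (adjusted p = 0.815 and 0.561).

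Markers of other cells that a crypt preparation can hold gave the following medians. For B cell and plasma cell markers it was −0.28 with 14 of 15 differences below 0, for myeloid markers −0.032 with 10 of 20, for innate lymphoid and natural killer cell markers −0.13 with 6 of 10, and for mast cell markers −0.063 with 5 of 8. For stromal and smooth muscle markers it was 0.19 with 2 of 13 below 0, and for endothelial markers −0.11 with 5 of 8. Of these 6 lists, Acta2 and Lyve1 rose and 0 genes fell. The smallest p-values of the myeloid, innate lymphoid and mast cell lists were those of Lyz2, Kit and Tpsb2. These genes differed by −0.72 ± 0.25, −1.18 ± 0.26 and −0.29 ± 0.14 (adjusted p = 0.226, 0.0790 and 0.369). By mean signal Lyz2, Kit and Tpsb2 stood at percentiles 99.0, 75.2 and 47.4 of all genes. The cell types behind their signals were not tested. Without CSN8fl/fl replicate 3 the medians were −0.58, −0.035, 0.014, −0.11, 0.25 and −0.13 in the same order of lists. In that fit Lyve1 rose, Acta2 did not pass, and the B cell genes Cd79a and Ms4a1 fell. For Cd79a the array left out was the lowest of all.

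Labelled sex and age changed together with replicate 3. In a model with genotype, replicate 3 minus replicates 1 and 2 ranged from −0.10 for Klrd1 to 0.53 for Ptprc among the 10 genes, and 0 of them passed (adjusted p from 0.778 to 0.973, with 0.0154% of all genes past the threshold). Their interaction with genotype did not pass for any of the 10 either (adjusted p from 0.421 to 0.965, with 0% of all genes past it). Within replicates 1 and 2, labelled as females of 16 weeks, the genotype difference was −0.12 for Cd3e, 0.0099 for Cd3g and 0.061 for Cd8a, and within replicate 3, labelled as males of 10 weeks with 1 array each, it was −0.93, −0.67 and −1.09. For Ptprc the same differences were −0.79 and −1.56, for Cd7 −0.43 and −0.94 and for Klrd1 −0.70 and −0.60, on the same side of 0 in both.

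The genes whose signals followed the mean of the 10 most closely over the 6 arrays were Mertk, Slc15a1, Itpr2, Slc52a3, Skil, Aspa, Ccng2 and Mxd1, with Pearson coefficients of 0.975 to 0.993 among 3362 genes with an SD of at least 0.3. None of these 8 was on a list of T cell, cytotoxic or homing genes. Those lists held 18, 27 and 16 measured genes before the cut on SD. Beside 3362 genes that is so few that their absence from the 8 says little. Slc15a1 encodes the peptide transporter of the enterocyte brush border and Slc52a3 a riboflavin transporter. The ranking is a description of 6 arrays, and 96 of the 3362 genes reached 0.9.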

How the data were processed

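Total RNA of crypts was hybridised to 1 array per sample. The deposited values are log2 signals per probe set, made by the authors with RMA and Partek 6.6, per the submitters' processing notes; no source used here gives the settings or the genome build. Of 22206 probe sets, 19572 had 1 gene symbol in the platform annotation, 0 had more than 1 and 2634 had none there. Every one of the 19572 gene IDs was found in the RefSeq gene table. Where a gene had several probe sets (55 genes), the one with the highest mean was used, which left 19505 genes.

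Genotypes were compared with limma 3.58.1 under R 4.3.3 (lmFit, then eBayes, genotype only, two-sided), with Benjamini-Hochberg adjustment over all genes. The tests had 8.85 degrees of freedom per gene, the residual ones plus those that the moderation adds. The fit was tested on simulated data. Array medians differed by at most 0.058; arrays have no read depth, and their number limits the precision. Same-numbered samples deviated together with correlations of 0.12, −0.024 and 0.038, so the numbers were not taken as pairs. The members and lists were chosen with earlier results of these data known. Beyond the members and Cops8, genes were named from among the smallest p-values of each list, not equally many per list, and by likeness to the members over the arrays. Cd8b1, Cd4, Klrc1, Klrc2, Xcr1, Il15, Btnl1, Btnl6, Ccl25 and Cdh1 were named for their role after their values were seen. Nt5e and Anpep were named as the ends of the mean signals of the villus list, and Cd79a because it passed without CSN8fl/fl replicate 3. Alternatives were a replicate block, labelled sex and age, a filter on dim probe sets, a variance trend, array weights, other scalings, the mean of probe sets and leaving out each array.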

Additional observations from a re-analysis of the deposited data

How the results depend on the processing

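None of the 10 lymphocyte genes passed the threshold in any other fit (15 fits, 14 for Klrd1 and Xcl1), with adjusted p-values of 0.0648 to 0.348 for Ptprc, 0.0874 to 0.404 for Cd7 and 0.115 to 0.440 for Klrd1. The differences kept their sign in every such fit except those of Cd3g (0.017) and Cd8a (0.033) without CSN8fl/fl replicate 3, and that of Gzmb, which was −0.24, −0.055, −0.0092 and −0.13 without CSN8ΔIEC replicates 2 and 3 and CSN8fl/fl replicates 1 and 2; the cause was not tested. With 1 array left out the differences spanned −0.46 to 0.017 for Cd3g, −0.65 to 0.033 for Cd8a and −0.24 to 0.35 for Gzmb. The median over the 10 genes ranged from −0.48 to −0.071 with 1 array left out; the lowest was without CSN8fl/fl replicate 2, the highest without CSN8fl/fl replicate 3. It was −0.21 with array weights, −0.35 as a mean and −0.32 without Ptprc. With dim probe sets filtered out Klrd1 and Xcl1 were not tested. The 210 genes past the threshold became 202 with the replicate block, and 41 to 228 with 1 array left out. Of the 190 other listed genes, tuft cell markers not counted, 2 passed, 3 with the replicate block and 1 to 3 with 1 array left out. Cops8 passed with dim probe sets filtered out (adjusted p = 0.0431; 0.0431 to 0.293 over all fits). Among the 10, signal over background limits Klrd1 and Xcl1 most, the 2 genes that filter left out.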

Other observations

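Of the 15 B cell and plasma cell markers 0 passed, 14 differences were below 0 and that of Jchain was above. Jchain, the joining chain of secreted IgA and IgM from plasma cells, was at 7.14, 6.56 and 7.77 in CSN8ΔIEC replicates 1 to 3, against 6.13, 6.30 and 4.50 in CSN8fl/fl replicates 1 to 3, a difference of 1.51 ± 0.46 (adjusted p = 0.181). Ms4a1, which encodes the B cell surface protein CD20, was at 5.28, 5.13 and 4.82 in CSN8ΔIEC crypts, against 6.44, 6.19 and 5.22 in CSN8fl/fl crypts. The difference was −0.87 ± 0.29 (adjusted p = 0.206). Cd79a was at 6.08, 5.90 and 6.00 in CSN8ΔIEC crypts, against 7.41, 7.13 and 5.36 in CSN8fl/fl crypts. Its difference was −0.64 ± 0.45 (adjusted p = 0.534). Both genes passed and fell without CSN8fl/fl replicate 3, which for Cd79a lay below every CSN8ΔIEC array. Cr2, a complement receptor of B cells, differed by −0.78 ± 0.19 (adjusted p = 0.108). CSN8fl/fl replicate 3, the highest array for most lymphocyte genes, was the lowest for 5 of these 15 markers, Jchain and Cd79a among them. CSN8fl/fl replicate 3 was the lowest for 25.7% of all genes, a share near the 33.3% of these markers. CSN8ΔIEC replicate 3 was also the lowest for 5 of the 15, beside 17.4% of all genes.

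Among the listed genes that rose, Lyve1, a hyaluronan receptor of lymphatic endothelium and some macrophages, was at 8.15, 8.48 and 8.17 in CSN8ΔIEC replicates 1 to 3, against 7.14, 7.30 and 7.08 in CSN8fl/fl replicates 1 to 3, a difference of 1.09 ± 0.14 (adjusted p = 0.00996). Acta2, the smooth muscle actin, was at 5.81, 5.79 and 5.95 in CSN8ΔIEC crypts, against 5.29, 5.15 and 5.12 in CSN8fl/fl crypts, a difference of 0.66 ± 0.12 (adjusted p = 0.0366). Acta2 did not pass without CSN8fl/fl replicate 3. Its mean of 5.52 over all arrays lay below the cut of the filter on dim probe sets, 6.74. Of the list of Acta2, 2 of 13 differences were below 0, the lowest that of Des, −0.49 ± 0.12 (adjusted p = 0.113). The endothelial genes other than Lyve1 did not pass, and 5 of the 8 of that list had differences below 0. Eng differed by 0.41 ± 0.11 (adjusted p = 0.126), Tek by −0.45 ± 0.21 and Emcn by −0.38 ± 0.18 (adjusted p = 0.359 and 0.358). By mean signal Tek, Eng, Des and Emcn stood at percentiles 5.6, 12.0, 14.3 and 26.3 of all genes. These are dim signals, in which a difference is hard to read.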
